A study of Mus musculus with 44 samples.

Results

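The type 2 cytokine axis was followed through 7 genes, Il33, Tslp, Il1rl1, Il1rap, Il4ra, Il13ra1 and Il13ra2, in sorted mammary fibroblasts. They are 7 of the 55486 genes of the deposited counts table, and were selected on their measured values across tumor model and CD26 class, so their levels in those groups are given as a description without a test. All 7 passed the filter on low counts. A list of 52 partner genes of the axis (other ligands, receptor partners, signalling genes, negative regulators and response genes) was tested beside them.

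IL-33 is a nuclear cytokine of stromal and epithelial cells that is released when cells are damaged, and TSLP is a secreted cytokine of barrier tissues. IL-33 binds ST2, encoded by Il1rl1, which signals together with the shared co-receptor encoded by Il1rap, while TSLP binds Crlf2 paired with Il7r. IL-4 and IL-13 are made by lymphocytes and innate cells and are read through Il4ra. This chain pairs with Il2rg (the type I receptor, for IL-4) or with Il13ra1 (the type II receptor, for both). The signal is passed on by JAK kinases and Stat6. Il13ra2 binds IL-13 with high affinity and has a short cytoplasmic tail, and it is commonly described as a decoy. In fibroblasts, these receptors are known for their part in wound repair and fibrosis.

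Fibroblasts (EpCAM−/CD49f−/CD31−/CD45− cells) came from mammary glands of female En1-Cre;mTmG mice, whose GFP marks cells with a history of En1 expression and whose other cells keep tdTomato. The mTmG reporter had been backcrossed to FVB/n. Purchased En1-Cre mice were then backcrossed with these reporter mice, for fewer generations than the reporter had been to FVB/n. The resulting background of the hosts is not given. The donor tissue was placed in 4th fat pads that had not been cleared, so that the host gland remained. The labels call the control mice wildtype and do not give their donor genotype. The study describes control donor tissue for these hosts as that of WapCre-negative Cdh1F/F;PtenF/F mice. Such donors carry floxed alleles that the other donors lack. WB1P mice received tissue with the genotype WapCre;Brca1F/F;Trp53F/F, and WB1P-Myc mice received the same with Col1a1invCAG-Myc-IRES-Luc added, with recombination driven by the milk protein promoter Wap in the donor epithelium. The series text gives harvest at end-stage tumor, or at the same age in controls. The labels mark WB1P-Myc mice 23 and 69 with 8x8, which as a tumor size in mm is the stage before end stage in the study's methods, so the stage of these mice is uncertain. The ages at harvest are not given in the sources used here. Cells were sorted by surface CD26 and GFP into En1+ (CD26−), CD26+ (En1−), double+ and double− populations. Fibroblasts of control mice are called NFs and those of tumor mice CAFs.

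The 44 libraries came from 13 mice, with 3 control, 5 WB1P and 5 WB1P-Myc mice. Control labels carry pairs of mouse numbers (82/83, 49/52, 44/46) without saying whether animals were pooled, and each pair was counted as 1 mouse. Counts were summed per mouse and CD26 class, which gave 25 sums, with 3 mice per class in controls, 5 CD26− and 4 CD26+ in WB1P, and 5 per class in WB1P-Myc. Both classes were present in 12 mice. Libraries held 5790599 to 15240328 counts, with a median of 12818093, and the shallowest was the WB1P double+ library of mouse 12. Levels are given as counts scaled to a common total per sum (CPM), and fold changes as log2 differences between groups with the standard error (SE) from an edgeR fit to all genes.

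The sort was visible in the RNA. Dpp4, which encodes CD26, lay between 223 and 846 CPM in CD26+ sums and between 0.619 and 17.6 CPM in CD26− sums. En1 was higher in the En1 lineage than outside it in each mouse and class with both populations, by a ratio of 1.32 to 3.57. The 6 fibroblast markers were all present in every group, and Col1a1 was the most abundant. Ptprc, the defining leukocyte gene, averaged 0.869 to 4.75 CPM per group. The whole leukocyte list summed to 5.57 to 210 CPM per sum. Its most abundant gene in CD26+ CAFs was Cd3e, which averaged 58.5 CPM in WB1P and 66.2 CPM in WB1P-Myc mice. Pericyte markers, which were higher in CD26− CAFs, are given below.

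Il33 was low in NFs and high in CAFs of both CD26 classes. Its level in CD26− NFs was 26.7 CPM in mouse 82/83, 48.7 in 49/52 and 12.0 in 44/46. In CD26− CAFs of WB1P mice, it measured 316 CPM in mouse 10, 535 in 93, 387 in 12, 190.1 in 14 and 197 in 35. In CD26− CAFs of WB1P-Myc mice, it measured 201 CPM in mouse 21, 341 in 67, 539 in 95, 218 in 23 and 385 in 69. Every CD26− CAF value thus lay above every CD26− NF value. In CD26+ NFs, Il33 measured 54.1 CPM in mouse 82/83, 215 in 49/52 and 137 in 44/46. Among CD26+ CAFs, WB1P mice held 1023 CPM in mouse 93, 395 in 12, 389.7 in 14 and 465 in 35. CD26+ CAFs of WB1P-Myc mice held 320.3 CPM in mouse 21, 381 in 67, 709 in 95, 296 in 23 and 431 in 69. CD26+ NFs and CAFs did not overlap either, and mouse 93 stood above the other WB1P mice. The log2 fold change of CAFs against NFs was 3.57 ± 0.57 (SE) in the CD26− class (4.16 without control mouse 49/52) and 2.05 ± 0.52 in the CD26+ class. Fewer cells that express a gene and less of its RNA per cell cannot be told apart in bulk libraries, for this gene and all others here.

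Within mice, Il33 was higher in the CD26+ class in 12 of 12 mice. The log2 difference of CD26+ against CD26− was 2.26 ± 0.58 in NFs and 0.74 ± 0.31 in CAFs. Between tumor models, the ranges overlapped in both classes, with a log2 difference of WB1P-Myc against WB1P of −0.13 ± 0.43 in CD26− CAFs and −0.57 ± 0.45 in CD26+ CAFs. Without WB1P mouse 93, these were 0.18 and 0.02, and without WB1P-Myc mouse 21, the CD26− value was 0.02. Ordered by mean, the groups ran from CD26− NFs (29.1 ± 18.5 CPM, SD, n = 3) and CD26+ NFs (135 ± 80.3, n = 3) to WB1P CD26+ CAFs (568 ± 305, n = 4), and of the neighbours in that order, the pair of NF groups alone had separate ranges.

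Tslp, the other ligand, was scarce, and its higher values were in CD26+ CAFs. The CD26− NFs held 2.66 CPM in mouse 82/83, 5.21 in 49/52 and 3.00 in 44/46, and in CD26+ NFs, 4.87, 5.52 and 3.46 CPM in the same order. CD26− CAFs lay between 1.32 and 8.04 CPM, with 5 of 10 below the lowest NF and 3 above the highest. In CD26+ CAFs of WB1P mice, Tslp measured 16.2 CPM in mouse 93, 27.6 in 12, 3.71 in 14 and 4.96 in 35. In CD26+ CAFs of WB1P-Myc mice, it measured 8.33 CPM in mouse 21, 6.75 in 67, 18.4 in 95, 18.4 in 23 and 5.21 in 69. Of the 9 CD26+ CAF values, 6 exceeded the highest CD26+ NF value, so the groups overlapped. The log2 fold change of CAFs against NFs was 0.11 ± 0.55 in the CD26− class and 1.54 ± 0.60 in the CD26+ class. The first turned negative without control mouse 82/83 (−0.06) or 44/46 (−0.02), WB1P mouse 93 (−0.18) or WB1P-Myc mouse 95 (−0.01). Tslp was higher in the CD26+ class in 11 of 12 mice, with log2 differences of 0.42 ± 0.68 in NFs and 1.86 ± 0.39 in CAFs.

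Il1rl1, the IL-33 receptor chain ST2, was present in NFs and CAFs alike and varied most between mice of a group (pooled SD of log2 CPM 1.30). In CD26− NFs, it measured 252 CPM in mouse 82/83, 93.1 in 49/52 and 132 in 44/46, and in CD26+ NFs, 564, 120.3 and 221 CPM in the same order. In CD26− CAFs of WB1P mice, it measured 39.7 CPM in mouse 10, 1189 in 93, 313 in 12, 362 in 14 and 135 in 35. In CD26− CAFs of WB1P-Myc mice, it measured 79.5 CPM in mouse 21, 56.8 in 67, 354 in 95, 62.4 in 23 and 428 in 69. CD26− CAFs fell on both sides of the NFs, with 4 of 10 below the lowest NF and 5 above the highest. Among CD26+ CAFs, WB1P mice held 2815 CPM in mouse 93, 564 in 12, 537 in 14 and 358 in 35. CD26+ CAFs of WB1P-Myc mice held 517 CPM in mouse 21, 157 in 67, 567 in 95, 472 in 23 and 397 in 69. Here 3 of 9 CAF values exceeded the highest NF value and none lay below the lowest.

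The log2 fold change of Il1rl1 in CAFs against NFs was 0.90 ± 0.86 in the CD26− class (0.38 without WB1P mouse 93 and 1.45 without control mouse 82/83) and 1.33 ± 0.89 in the CD26+ class (0.66 and 2.22). Mouse 93 had the highest value of its group in both classes, and the log2 difference of WB1P-Myc against WB1P in CD26+ CAFs, −1.53 ± 0.83, was −0.19 without it. In CD26− CAFs, that difference was −1.30 ± 0.79, and −0.25 without mouse 93. Within mice, Il1rl1 was higher in the CD26+ class in 11 of 12 mice, with log2 differences of 1.01 ± 1.02 in NFs and 1.44 ± 0.57 in CAFs. The gene gives rise to a membrane receptor and a soluble form that binds IL-33 without signalling, and counts per gene do not separate them.

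Il1rap, the co-receptor, had group means between 28.5 and 51.8 CPM and was the member with lower levels in the CD26+ class. Mouse values in CD26− NFs were 31.5 CPM in mouse 82/83, 47.1 in 49/52 and 43.3 in 44/46, and in CD26+ NFs, 19.8, 35.8 and 29.7 CPM. CD26− CAFs lay between 20.7 and 57.2 CPM and CD26+ CAFs between 27.1 and 46.7 CPM, and both ranges overlapped with the NFs. The log2 fold change of CAFs against NFs was 0.17 ± 0.22 in the CD26− class and 0.50 ± 0.23 in the CD26+ class. Il1rap was lower in the CD26+ class in 11 of 12 mice, and the exception was WB1P mouse 14, whose CD26− CAFs held 36.6 CPM and whose CD26+ CAFs held 39.1 CPM. The log2 difference of the classes was −0.45 ± 0.27 in NFs and −0.12 ± 0.15 in CAFs. In WB1P-Myc mice, the classes were apart, with the CD26− CAFs at 48.4 to 54.6 CPM and the CD26+ CAFs at 30.7 to 40.4 CPM.

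Il4ra, the chain shared by both IL-4 receptors, was abundant in all groups. Among CD26− NFs, the level was 202 CPM in mouse 82/83, 439.8 in 49/52 and 189 in 44/46, and in CD26+ NFs, 356, 924 and 626 CPM. CD26− CAFs of WB1P mice held 332 CPM in mouse 10, 528 in 93, 391 in 12, 632 in 14 and 505 in 35, and those of WB1P-Myc mice lay between 232 and 349 CPM. CD26+ CAFs lay between 149 and 689.8 CPM, and none exceeded the highest CD26+ NF. NFs and CAFs overlapped in both classes, with log2 fold changes of 0.50 ± 0.37 in CD26− and −0.24 ± 0.36 in CD26+ fibroblasts (0.12 without control mouse 49/52). Within mice, Il4ra was higher in the CD26+ class in 3 of 3 NF and 6 of 9 CAF mice, with log2 differences of 1.25 ± 0.45 and 0.51 ± 0.25. WB1P-Myc CD26− CAFs had a lower mean than WB1P CD26− CAFs, with a log2 difference of −0.84 ± 0.35, and the difference in CD26+ CAFs was −0.14 ± 0.36 (0.02 without WB1P mouse 14 and 0.10 without WB1P-Myc mouse 67).

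Il13ra1, the chain that completes the type II receptor, was the member with the tightest groups (pooled SD of log2 CPM 0.31). CD26− NFs held 14.4 CPM in mouse 82/83, 14.5 in 49/52 and 12.7 in 44/46. Against this, CD26− CAFs of WB1P mice held 196 CPM in mouse 10, 178 in 93, 183 in 12, 165 in 14 and 213 in 35. The WB1P-Myc mice held, in the same class, 225 CPM in mouse 21, 169 in 67, 167 in 95, 153 in 23 and 152 in 69. The lowest CD26− CAF was therefore far above the highest CD26− NF. CD26+ NFs were already higher, with 49.7 CPM in mouse 82/83, 137 in 49/52 and 101 in 44/46. CD26+ CAFs of WB1P mice held 237 CPM in mouse 93, 165 in 12, 197 in 14 and 227 in 35, and those of WB1P-Myc mice lay between 153 and 223 CPM. CD26+ CAFs were above CD26+ NFs without overlap, while the 4 CAF groups overlapped with each other.

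The log2 fold change of Il13ra1 in CAFs against NFs was 3.75 ± 0.25 in the CD26− class and 1.22 ± 0.21 in the CD26+ class. The classes differed by 2.83 ± 0.26 (log2) in NFs, with the CD26+ class higher in 3 of 3 mice, and by 0.30 ± 0.13 in CAFs, with the CD26+ class higher in 6 of 9 mice. The CAF against NF change was smaller in the CD26+ than in the CD26− class by a log2 difference of −2.53 ± 0.28, which was not tested because the gene was selected on these groups.

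Il13ra2, the decoy chain, was near absent in NFs and low in CAFs. In CD26− NFs, it measured 0.112 CPM in mouse 82/83, 0.355 in 49/52 and 0 in 44/46, where a count of 0 allows up to 0.110 CPM (3 counts, counting error alone). In CD26+ NFs, it measured 0.614, 0.476 and 0.373 CPM in the same order. CD26− CAFs of WB1P mice held 1.78 CPM in mouse 10, 5.22 in 93, 1.37 in 12, 2.40 in 14 and 2.50 in 35, and those of WB1P-Myc mice held 0.938 CPM in mouse 21, 6.22 in 67, 2.17 in 95, 5.81 in 23 and 6.65 in 69. CD26+ CAFs of WB1P mice held 7.38 CPM in mouse 93, 5.35 in 12, 9.01 in 14 and 11.4 in 35, and those of WB1P-Myc mice held 3.00 CPM in mouse 21, 7.20 in 67, 6.85 in 95, 13.8 in 23 and 7.31 in 69. In both classes, every CAF lay above every NF. The log2 fold change of CAFs against NFs was 4.52 ± 0.79 in the CD26− class and 4.15 ± 0.72 in the CD26+ class. The first was 5.90 without control mouse 49/52 and 3.93 without 44/46. Il13ra2 was higher in the CD26+ class in 12 of 12 mice, with log2 differences of 1.70 ± 0.87 in NFs (3.09 without control mouse 49/52) and 1.33 ± 0.37 in CAFs.

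**Figure D1:**
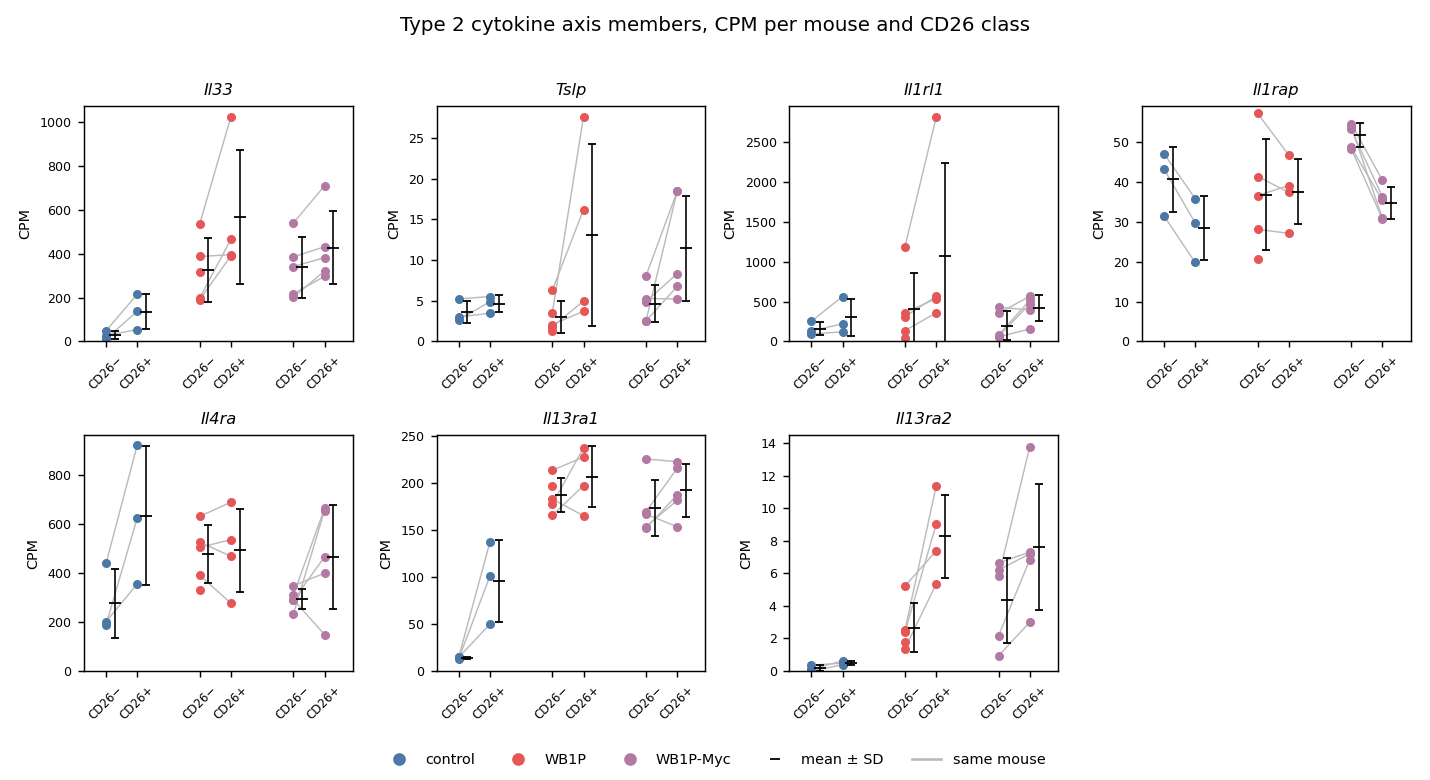
Levels of the 7 members in CPM (y axis, from 0) for each mouse and CD26 class (x axis), with control mice in blue, WB1P in red and WB1P-Myc in purple. Points are mice, grey lines join the classes of a mouse, and black bars show the mean ± SD of 3 to 5 mice and are clipped at 0 for Il1rl1 and for Il13ra2 in CD26− NFs; CAFs and NFs are apart in both classes for Il33, Il13ra1 and Il13ra2.

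Across the 7 members, 3 (Il33, Il13ra1 and Il13ra2) had CAFs above NFs without overlap in the CD26− class, where 10.5% of the 16601 genes tested did, and the same 3 in the CD26+ class, where 7.78% did. Since these values chose the members, nothing is read from the counts. In NFs, 6 of the 7 members were higher in the CD26+ class in every mouse, against 18.8% of genes, and in CAFs, Il33 and Il13ra2 were higher in every mouse, against 8.14% of genes.

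Per kilobase of exon, the levels of the receptor chains can be set beside each other. In CD26− NFs, Il4ra averaged 46.1 ± 23.5 CPM per kb (SD, n = 3) and its partner chain Il13ra1 3.74 ± 0.272. In CD26− CAFs, the same levels were 64.3 ± 21.3 and 48.5 ± 6.63 CPM per kb (n = 10), so the chains of the type II receptor were closer in abundance there. Il13ra2 reached 1.54 ± 0.965 CPM per kb in CD26− CAFs and 3.47 ± 1.39 in CD26+ CAFs (n = 9), below Il13ra1 in both. For IL-33, the receptor chain Il1rl1 averaged 43.8 ± 50.1 CPM per kb in CD26− CAFs, above its co-receptor Il1rap with 3.90 ± 1.09, and the ligand Il33 averaged 115 ± 46.0.

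The partner genes place these members in their pathway. Of the 52, 41 reached a mean of 1 CPM in at least 1 of the 6 groups, and 41 passed the filter on low counts and were tested in each comparison with edgeR, with p-values adjusted over all 16601 genes (FDR) and a call at an FDR under 0.05. Counts are given beside the share of all genes called in that direction.

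The ligands on the partner list, IL-4 and IL-13 among them, were almost absent from the sorted cells. Il4, Il13, Il5, Il9 and Il25 did not pass the filter, and Il7 was the ligand tested, with a mean of 1.20 CPM or less in every group. Il9 had 0 counts in all 25 sums, and Il25 reached 0.592 CPM at most. Il4 and Il13 stood out in a single library, the WB1P-Myc double− library of mouse 95, with 502 and 474 counts (40.3 and 38.1 CPM), while the next highest libraries held 0.232 and 0.618 CPM. That library is the only CD26− library of its mouse, and Gata3, a transcription factor of type 2 lymphocytes, had its next-to-highest value there (14.1 CPM). The highest Gata3 value, 19.96 CPM, was in the double− library of WB1P-Myc mouse 69. The CD26− sum of mouse 69 held 0 counts of Il4 and 1 of Il13, so high Gata3 did not always go with these ligands. The part of the mouse 95 library in the result was not tested. Il5ra, Il9r, Ccl24, Chil3, Alox15 and Fcer2a were not tested either, with at most 1.12 CPM in any sum.

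In CD26− CAFs against CD26− NFs, the question was how the rest of the axis stood where Il33 and the IL-13 receptors were high. Of the 41 partner genes, 9 rose and 9 fell, against 20.4% and 21% of all genes, and their median log2 fold change was 0.28, against 0.01 for all genes. Among the receptor partners, 4 of 10 rose and 1 fell, and Il2rg, the common gamma chain that completes the type I IL-4 receptor, rose by 5.83 ± 0.65 (log2, FDR 5.74e-07). NFs of that class held 0.225, 0.592 and 0.512 CPM, and the 10 CAF values ran from 11.6 to 36.9 CPM with a median of 23.6. Il18rap, a subunit of the receptor for the related cytokine IL-18, rose by 4.11 ± 1.00 (FDR 0.00242), from a mean of 0.226 to 3.93 CPM. Its highest CD26− CAF values were in WB1P-Myc mice 95 (10.4 CPM) and 69 (8.27 CPM) and WB1P mouse 35 (6.14 CPM), whose double− libraries had the highest Ptprc, at 10.0, 10.8 and 17.1 CPM. The part of Ptprc-positive cells in the result was not tested.

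Of the 14 signalling genes in that comparison, 1 rose, 6 fell and 7 were not called, beside the 20.4% and 21% of all genes. Jak3, the kinase bound to the common gamma chain, was the 1 that rose, by 3.04 ± 0.28 (FDR 3.77e-08), from 6.07, 8.29 and 5.38 CPM in NFs to 32.2 to 85.8 CPM in CAFs. Irs2, an adaptor of the IL-4 receptor, fell, with a log2 fold change of −1.38 ± 0.22 (FDR 3.4e-05), and so did Stat5b, with −1.38 ± 0.15 (FDR 6.2e-07). Stat6, the transcription factor downstream of Il4ra, was not called (0.29 ± 0.15, edgeR FDR 0.126), nor was Crlf2, the TSLP receptor chain (0.28 ± 0.21, edgeR FDR 0.309). Of the 8 negative regulators, Tnfaip3 alone was called, and it rose.

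Of the 8 response genes tested in CD26− CAFs against NFs, 3 rose and 2 fell, beside 20.4% and 21% of all genes. Ccl17, a chemokine that attracts type 2 T cells, rose by 5.21 ± 1.16 (FDR 0.00122) from 3 counts over the NFs, and the ratio of summed levels was 46.2 with a 95% counting interval of 15.7 to 225. Its CAF mean of 1.61 ± 2.10 CPM (SD, n = 10) included 7.37 CPM in WB1P-Myc mouse 23, and its log2 fold change was 4.43 without that mouse and 6.06 without control mouse 49/52. Retnla, a resistin-like gene induced by type 2 cytokines, fell, with −3.84 ± 0.64 (FDR 6.96e-05; −3.24 without control mouse 44/46), from a mean of 1.92 CPM. Ccl11, the eosinophil chemokine eotaxin, fell as well, with −0.95 ± 0.29 (FDR 0.0124), and its FDR reached 0.0903 when control mouse 82/83 or 49/52 was left out.

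In CD26+ CAFs against CD26+ NFs, 7 of the 41 partner genes rose and 7 fell, against 20.1% and 21.1% of all genes, with a median log2 fold change of 0.11 against −0.00. Il18rap rose by 5.13 ± 1.16 (FDR 0.00159) from 5 counts over the NFs to a mean of 2.12 CPM (ratio 35.0, 95% counting interval 14.9 to 108). All 5 counts were from control mouse 44/46, and without it the NFs had 0 counts, so that no fold change can be given. Jak3 rose by 1.59 (FDR 7.63e-05), from 3.80 to 5.07 CPM in NFs to 8.08 to 19.4 CPM in CAFs. Il2rg rose by 2.05 ± 0.62 (FDR 0.0118), but to a mean of 1.04 CPM, and without control mouse 82/83 its FDR was 0.0536. Tnfaip3, which encodes A20, an inhibitor of NF-kB signalling, rose by 1.86 ± 0.30 (FDR 7.22e-05), with 91.2, 154 and 130.5 CPM in NFs and 204 to 707 CPM in CAFs, without overlap. Among the genes that fell, Irs2 had −1.35 ± 0.22 (FDR 8.66e-05) and Irs1 −1.10 ± 0.20 (FDR 0.000201). Stat5b had −0.64 ± 0.16 (FDR 0.00362; 0.0749 without control mouse 49/52) and Traf6, a ubiquitin ligase downstream of Il1rl1, −0.62 ± 0.19 (FDR 0.0116; 0.0775 without control mouse 82/83). Stat6 was not called (0.11 ± 0.15, edgeR FDR 0.58). The comparisons in the CD26 classes use the same mice and are not independent.

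The CAF against NF change was then compared between the CD26 classes by an interaction test, which called 2.11% of all genes and 2 of the 41 partner genes. Both act together at the type I receptor. Il2rg rose less in CD26+ than in CD26− fibroblasts, with a log2 difference of −3.78 ± 0.86 (FDR 0.0195), and so did Jak3, with −1.46 ± 0.33 (FDR 0.0193). With mouse as a replicate block, 4 of 42 partner genes were called, beside 392 higher and 574 lower of 17125 genes. In that fit, Il2rg (FDR 0.0193) and Jak3 (FDR 0.0341) had negative log2 differences. Ccl11 (1.31 ± 0.28, FDR 0.0172) and Stat5b (0.75 ± 0.16, FDR 0.0174) went the other way. Without control mouse 82/83, 49/52 and 44/46, 0, 1 and 0 partner genes were called, with an FDR of up to 0.206 for Il2rg and 0.167 for Jak3. Among all genes, calls fell from 120 higher and 231 lower to 47 and 94, 40 and 117, and 22 and 52, in the same order. Over all alternatives, the log2 difference ran from −4.08 to −3.61 for Il2rg and from −1.63 to −1.30 for Jak3.

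Markers of pericytes were also higher in CD26− CAFs. All 6 genes of the pericyte list averaged at least 1 CPM in every group, and their summed level in CD26− CAFs was 1808 to 5277 CPM in WB1P and 2536 to 10449 CPM in WB1P-Myc mice, while CD26− NFs had 209.9 to 399.97 CPM. The CD26+ class stayed at 162 to 199 CPM among NFs and at 145 to 325 CPM among CAFs. Rgs5 was the most abundant, with 565 to 4791 CPM across CD26− CAFs, whereas the CD26+ CAFs reached 1.24 to 10.9 CPM. WB1P-Myc mouse 21 had the highest Rgs5 and the highest Jak3 (85.8 CPM), but WB1P mouse 35 had the highest Il2rg (36.9 CPM, with 890.4 CPM of Rgs5). The part of these markers in the levels of Il2rg, Jak3 or the members in CD26− CAFs was not tested.

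**Figure D2:**
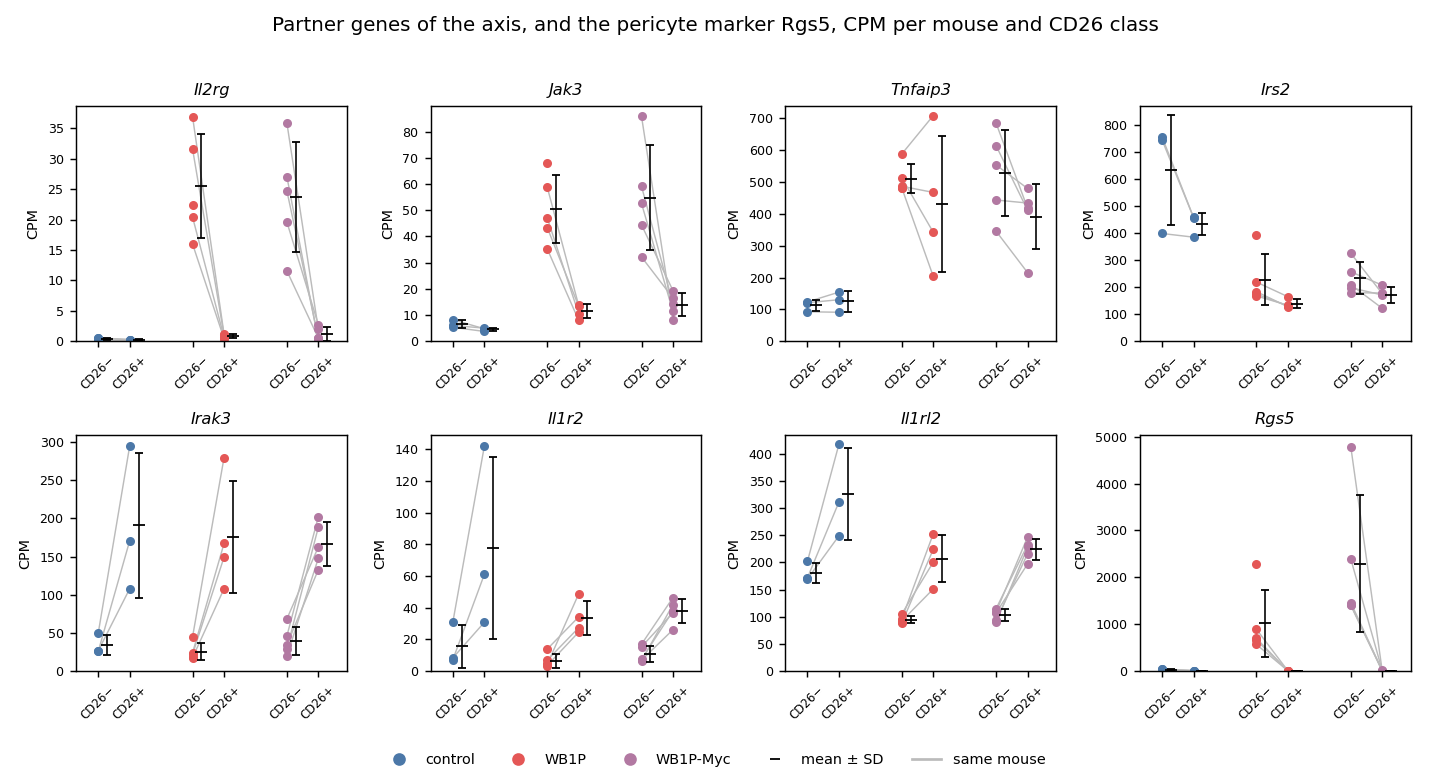
Levels of 7 partner genes and of the pericyte marker Rgs5 in CPM (y axis, from 0) for each mouse and CD26 class (x axis), drawn as for the members, with mean ± SD of 3 to 5 mice. Il2rg, Jak3 and Rgs5 are highest in CD26− CAFs, and Irak3, Il1r2 and Il1rl2 are higher in the CD26+ class.

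Between tumor models, no partner gene was called. Of all genes, 0.512% were called in CD26− CAFs and 0% in CD26+ CAFs. The calls in CD26− CAFs were 34 higher and 51 lower. They became 7 and 2 without WB1P-Myc mouse 21, and 140 and 103 without WB1P-Myc mouse 23. By edgeR, 0 of 41 partner genes passed in either class (lowest FDR 0.147 and 1), with 4 and 0 at an unadjusted p under 0.05. DESeq2 also called 0, beside 185 higher and 236 lower of 31826 genes in CD26− CAFs and 4 and 5 in CD26+ CAFs. Single libraries taken as units, which counts the libraries of a mouse as independent, gave 5 of 39 in CD26− CAFs, beside 993 higher and 923 lower of 14784 genes.

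Within NFs, 3 of the 41 partner genes were higher in the CD26+ class and 0 lower, against 2.67% and 1.49% of all genes. Irak3, which restrains signalling from Il1rl1 and related receptors, was higher by 2.55 ± 0.48 (log2, FDR 0.00261), with the CD26− values of the 3 mice at 26.5, 49.8 and 25.7 CPM and their CD26+ values at 108, 295 and 171 CPM. Il1r2, the decoy receptor for IL-1, was higher by 2.38 ± 0.58 (FDR 0.0185), and Il1rl2, the IL-36 receptor, by 0.91 ± 0.20 (FDR 0.00979). All 3 calls were lost without control mouse 44/46 (FDR up to 0.177), and that of Il1rl2 also without 49/52. Calls among all genes fell from 444 higher and 248 lower to 141 and 34 without 44/46, and to 188 and 42 without 49/52. Over all alternatives, the log2 differences ran from 2.45 to 2.67 for Irak3, 2.18 to 2.64 for Il1r2 and 0.79 to 1.01 for Il1rl2. DESeq2 called 3 of 49 higher and 0 lower, beside 571 and 420 of 31826 genes. The paired fit with mouse as a replicate block called 4 of 42 higher and 0 lower, with Irak4 added (FDR 0.0143), beside 916 and 991 of 17125 genes.

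Within CAFs, 7 partner genes were higher and 6 lower in the CD26+ class, against 19.1% and 19.9% of all genes, with a median log2 difference of 0.09 against 0.01. The paired fit with mouse as a replicate block called 13 of 42 in each direction, beside 3889 higher and 4363 lower of 17125 genes. Il13 passed the filter in that fit and was called lower (−5.24 ± 1.57, FDR 0.0206). Of its 513 counts, 474 were in the WB1P-Myc double− library of mouse 95. Irak3 was higher by 2.60 ± 0.27 (FDR 1.03e-07), reaching 108 to 279.5 CPM there while CD26− CAFs had 17.4 to 68.3 CPM, and so were Il1r2 by 2.26 ± 0.33 (FDR 8.99e-06), Il1rl2 by 1.29 ± 0.11 (FDR 1.29e-08) and Ccl11 by 0.96 ± 0.22 (FDR 0.00117). Lower in the CD26+ class were Il2rg, with −4.54 ± 0.37 (FDR 3.72e-09), Ccl17, with −2.72 ± 0.61 (FDR 0.00119), Jak3, with −1.91 ± 0.17 (FDR 8.13e-09), and Ptpn6, a phosphatase of cytokine receptors, with −1.12 ± 0.36 (FDR 0.0175; 0.1 at most, without WB1P mouse 35 or the 8x8 mice). Ptpn6 is also a gene of blood cells, and it averaged 2.47 CPM in CD26− CAFs, where Ptprc averaged 3.98 CPM, against 0.959 and 1.29 CPM in CD26+ CAFs. The summed leukocyte list was instead higher in CD26+ CAFs, with means of 65.5 CPM in WB1P and 72.7 CPM in WB1P-Myc mice. In CD26− CAFs, these means were 19.6 and 35.6 CPM. The T cell gene Cd3e led the list in CD26+ CAFs, with 58.5 and 66.2 CPM. The part of blood cells in the result was not tested.

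**Figure D3:**
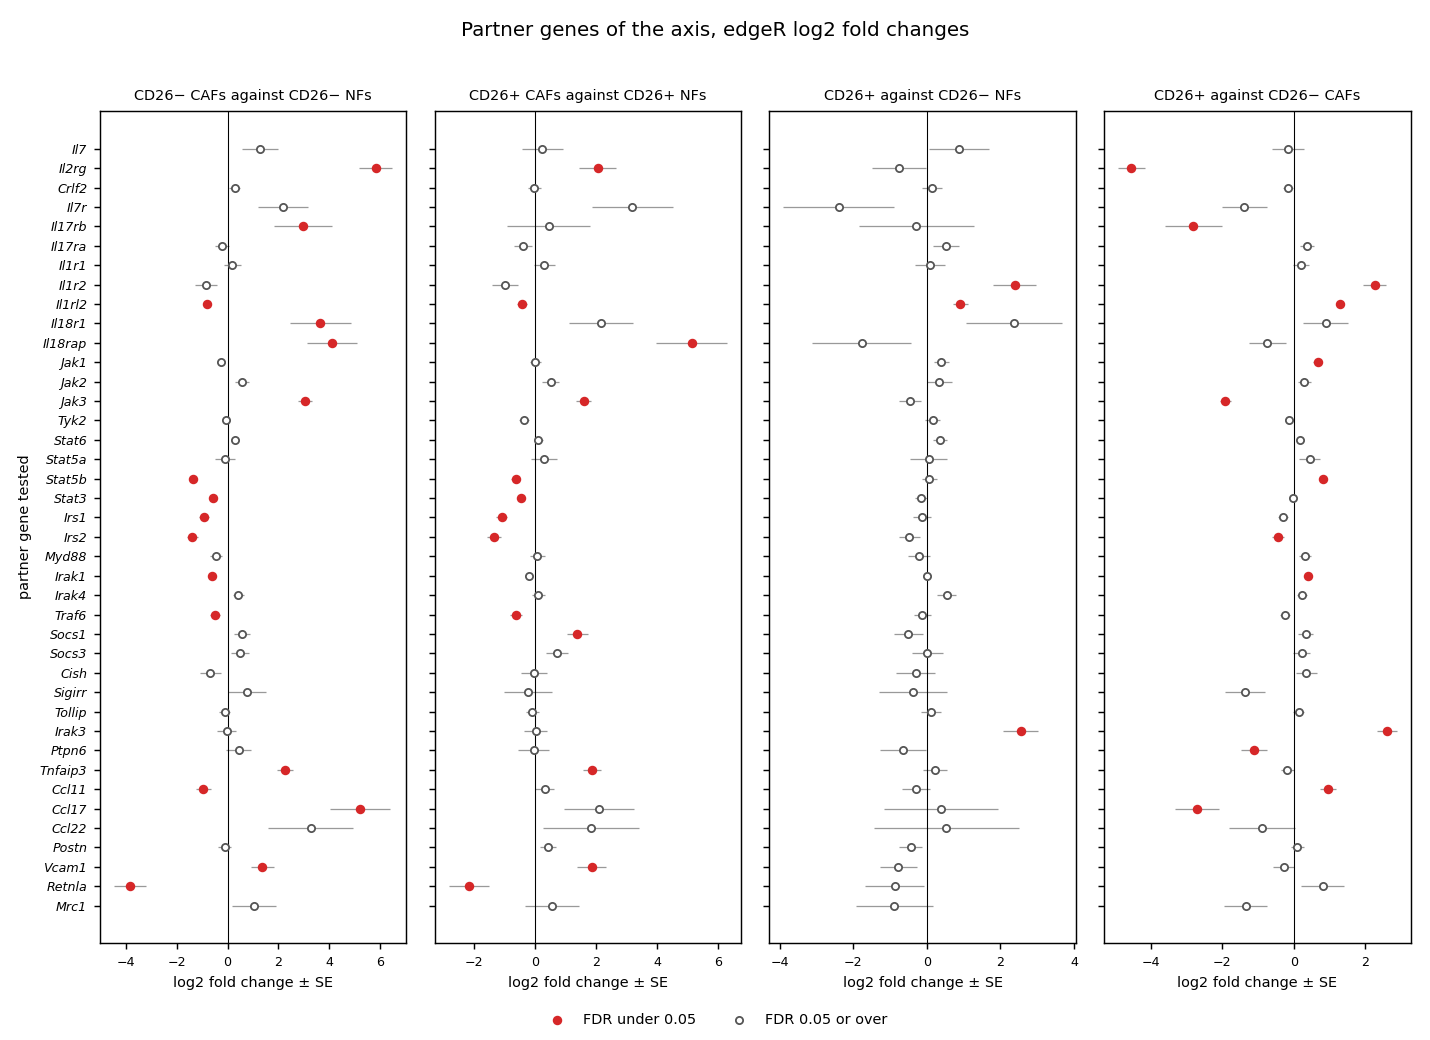
edgeR log2 fold changes ± SE (x axis) of 40 of the 41 partner genes tested (y axis, in the order of the lists) in 4 comparisons, with filled red points at an FDR under 0.05 and open points otherwise. Of the genes drawn, 17, 13, 3 and 13 are called from left to right, and the gene not drawn is called in the first 2 comparisons.

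The En1 lineage was not used to choose the members, so they were tested for it, as En1+ against double− and double+ against CD26+ libraries in NFs and in CAFs. No member was called in any of these 4 contrasts (28 tests, edgeR, lowest FDR 0.999924), and 1 had an unadjusted p under 0.05. Of all 15584 genes tested on single libraries, 0.00642% were called in CD26− NFs, 0.00642% in CD26+ NFs, 0% in CD26− CAFs and 0.0193% in CD26+ CAFs. The partner genes gave 0 calls of 40 in each contrast by edgeR, with 0, 0, 4 and 2 at an unadjusted p under 0.05, and 0 by DESeq2. The called genes were Zic1 in both NF contrasts and Zic1, Gt(ROSA)26Sor and Gm36738 in CD26+ CAFs, named after their values were seen, and the NF calls were lost when any control mouse was left out, that in CD26+ NFs also without WB1P mouse 93. The 3 calls in CD26+ CAFs fell to 1 without the 8x8 mice or without WB1P mouse 93 or 14 or WB1P-Myc mouse 21 or 23, and to 2 without WB1P mouse 12 or 35, WB1P-Myc mouse 67 or 69, or the filter on low counts.

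The libraries compared come from the same mice. The paired fit with mouse as a replicate block called 4, 1, 1 and 3 genes higher in the En1 lineage and 23, 2, 9 and 0 lower, in the 4 contrasts in the order above. DESeq2 without a block called 1, 1, 1 and 3 higher and 5, 0, 7 and 0 lower. For En1 itself, the edgeR FDR was 1, 1, 0.901 and 0.999958 without the block and 0.0275, 0.253, 0.00641 and 0.0353 with it. No member or partner gene was called in either fit or by DESeq2.

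Il1rap came closest among the members. It was lower in the En1 lineage in 3 of 3 mice in each NF class, in 7 of 7 mice in CD26− CAFs and in 6 of 6 mice in CD26+ CAFs, at ratios of 0.794 to 0.992. In CD26+ CAFs, its log2 difference was −0.36 ± 0.16 (edgeR FDR 0.999958), and the paired fit gave −0.27 ± 0.06 with an FDR of 0.261. Il33 was lower in the En1 lineage in 6 of 6 mice in CD26+ CAFs, at ratios of 0.679 to 0.965, and higher in 3 of 7 in CD26− CAFs, and Tslp was lower in 7 of 7 mice in CD26− CAFs, at ratios of 0.362 to 0.972. Neither was called (edgeR FDR 0.999958 and 0.999924). Il4ra went the other way in CD26− CAFs, higher in the En1 lineage in 6 of 7 mice. These members were named after their values were seen. The share of all genes with the same direction in every mouse is not given here, so nothing is read from the counts of mice.

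The genes whose levels followed a member most closely over the 25 sums were found by Pearson r of log2 CPM among 10437 genes. This is a description, and differences between groups were not separated from those within groups. For Il33, they were Nuak2 (r 0.904), Plekhb2 (0.903) and Emb (0.888), and for Tslp, the chemokine genes Cxcl1 (0.866) and Ccl2 (0.842) and the metallothionein gene Mt2 (0.845). Il1rl1 was followed by Spsb1 (0.837), Ndrg1 (0.837) and Ywhag (0.832), and Il1rap less closely by Plppr3 (0.739), Cfi (0.686) and H2-Ab1 (0.682). For Il4ra, the genes were Itga11 (0.804), C030015A19Rik (0.708) and Pgr (0.708). Il13ra1 was followed by Plekhb2 (0.954) and by the matrix genes Aspn (0.944) and Sulf1 (0.942), and Il13ra2 by Fbln2 (0.941), Saa3 (0.939) and Serpina3n (0.916). By Spearman rho over the same sums, 9 of the 21 genes were again among the 3 closest.

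Promoter windows of 250 bases before to 50 after a start were available from RefSeq (GRCm38.p6) for 6 of the 7 members, in 8 windows. They were searched on both strands for TGA and TCA 1 base apart (AP-1), TTC and GAA 3 bases apart (STAT) or 4 bases apart (the STAT6 spacing) and TATAAA as the core promoter box, which occur in 7.81%, 8.3%, 6.95% and 13.6% of 32851 promoter windows of the same length. For the 3 members whose CAFs and NFs were apart, 1 window each is shown, with matches in capitals. The Il33 window at the upstream start (chr19:29924863-29925162, plus strand) held the STAT6 spacing from base 215 and TATAAA from base 48. Its other window (chr19:29945540-29945839), not shown, held TATAAA from base 222. The Il13ra2 window (chrX:147429143-147429442, minus strand) held the AP-1 motif from base 58 and TATAAA from bases 3 and 220, while the Il13ra1 window (chrX:36111858-36112157, plus strand) held none of the 4 motifs. The windows of Il1rl1, Il4ra and Il1rap, not shown, also held none of the 4 motifs. A match is a run of letters, and binding was not analysed here.
Il33: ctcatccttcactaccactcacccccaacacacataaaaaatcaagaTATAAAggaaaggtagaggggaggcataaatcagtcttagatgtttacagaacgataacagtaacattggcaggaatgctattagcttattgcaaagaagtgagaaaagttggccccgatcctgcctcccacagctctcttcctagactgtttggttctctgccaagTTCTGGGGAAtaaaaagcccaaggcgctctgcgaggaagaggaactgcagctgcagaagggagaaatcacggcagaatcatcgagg
Il13ra1: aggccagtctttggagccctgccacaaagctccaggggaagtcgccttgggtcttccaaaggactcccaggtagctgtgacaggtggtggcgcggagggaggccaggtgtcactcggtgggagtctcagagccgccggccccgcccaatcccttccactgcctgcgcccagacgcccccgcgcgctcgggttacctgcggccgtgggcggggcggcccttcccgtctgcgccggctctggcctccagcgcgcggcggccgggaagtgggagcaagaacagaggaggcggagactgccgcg
Il13ra2: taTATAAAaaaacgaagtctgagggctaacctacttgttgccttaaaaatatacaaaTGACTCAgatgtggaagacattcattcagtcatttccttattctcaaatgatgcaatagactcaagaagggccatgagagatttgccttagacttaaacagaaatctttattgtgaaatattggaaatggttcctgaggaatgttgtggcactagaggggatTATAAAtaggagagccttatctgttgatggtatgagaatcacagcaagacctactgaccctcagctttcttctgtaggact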

How the data were processed

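Stranded mRNA libraries of 44 sorted samples were sequenced by the authors, who deposited whole-number read counts per gene without normalization (HISAT2 2.2.1 and GRCm38 in their processing notes, with the counting tool not given). Members and gene lists were chosen with earlier results of these data known. Counts were summed per mouse and CD26 class and fitted in R 4.3.3 with edgeR 4.0.16 (filterByExpr, TMM, factors 0.780 to 1.15, glmQLFit and glmQLFTest), 6 groups together, with FDR over all genes. En1 contrasts used single libraries in 12 groups. DESeq2 1.42.0 was an alternative, and limma 3.58.1 was loaded by edgeR. CAF contrasts average WB1P and WB1P-Myc with equal weight. The classes of a mouse are paired, and their deviations from group means correlated with r of 0.237 to 0.668 (median 0.444, 12 pairs, log2 CPM with prior count 2), so fits with mouse as a replicate block were run too. Named partner genes are up to 4 per comparison and direction with the largest absolute log2 fold change among called genes whose higher group averaged 1 CPM or more, and 1 gene that met this in 2 comparisons is not named. Likeness used log2 of CPM plus 0.5 and genes with a mean of at least 5 CPM. The model was tested on simulated data. Alternatives were DESeq2's factors and test, no filter, the block, single libraries, a fold limit, and leaving out each mouse or the 8x8 mice. The platform of each library is not given in the sources used here, so batches could not be tested. No library was left out.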

Additional observations from a re-analysis of the deposited data

Results flagged for a closer look

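Among 28 groups of 4 or 5 mice, 4 member values lay far from the rest of their group, by the gap to the next mouse as a share of the group's range. Chance gives about 1 in 20 groups, but the groups share mice and the members were selected on these values, so nothing is read from the number. WB1P mouse 93 gave 3 of them: Il33 in CD26+ CAFs at 1023 CPM (the next mouse had 465 CPM), Il1rl1 in CD26− CAFs at 1189 CPM (next 362 CPM) and Il1rl1 in CD26+ CAFs at 2815 CPM (next 564 CPM). The remaining value was Il13ra1 in CD26− CAFs of WB1P-Myc mouse 21, at 225 CPM with 169 CPM in the next mouse.

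For 2 partner genes, the CAF against NF change differed between the CD26 classes by the interaction test. The log2 difference was −3.78 for Il2rg (edgeR FDR 0.0195) and −1.46 for Jak3 (edgeR FDR 0.0193), and both calls were lost without control mouse 82/83 or 44/46, and that of Il2rg also without 49/52.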

How the results depend on the processing

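Among alternative values of the members' log2 fold changes, 765 moved by less than the spread between mice (pooled SD of log2 CPM) and 5 by more, all on leaving out 1 mouse. These were Il1rl1 in WB1P-Myc against WB1P CD26+ CAFs (−0.19 without mouse 93), Il13ra1 in CD26+ CAFs against NFs (1.56 without 49/52) and between NF classes (3.18 without 82/83), and Il13ra2 in CD26− CAFs against NFs (5.90) and between NF classes (3.09), both without 49/52. In the En1 contrasts, none of the 504 alternative member values was called. Il13ra2 moved by more than that spread in NFs, from −0.86 to 0.49 without 82/83 and to −1.74 without 49/52 in the CD26+ class, and from −2.04 to −0.86 without 49/52 in the CD26− class.

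With an absolute log2 fold change over 2 added, partner calls numbered 9 in CD26− CAFs against NFs (all genes: 1142 higher, 729 lower), 4 in the CD26+ class (704, 624), 5 between CAF classes (410, 854) and 1 in the interaction (44, 171), of 16601 genes. Single libraries as units gave 5 in WB1P-Myc against WB1P CD26− CAFs (993, 923 of 14784) and 5 in the interaction (857, 1014). The block gave 26 between CAF classes (3889, 4363 of 17125) and 4 in the interaction (392, 574). Leaving out 1 mouse gave 0 to 3 calls between NF classes and 0 to 2 in the interaction, lowest without controls, which leaves 2 NF mice. The cause was not tested otherwise. Between NF classes, the all-gene calls in these fits ran from 141 higher and 34 lower (without 44/46) to 453 and 266 (without WB1P mouse 10). For the interaction, they ran from 22 and 52 (without 44/46) to 148 and 256 (without WB1P-Myc mouse 69). Of the likeness genes, 0 of 3 for Il33 and Il13ra1 and 1 of 3 for Il4ra were shared with Spearman rho. With 3 NF mice and few counts of Il13ra2, small NF differences are not resolved.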

Other observations

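Marker genes outside the fibroblast list also differed between groups. Wt1, a mesothelial and stromal transcription factor, averaged 36.7 CPM in WB1P CD26− CAFs and 0.603 CPM in CD26− NFs, while Lrrn4, another gene of the mesothelial list, had no counts in WB1P CD26− CAFs. Cd3e, a T cell gene, averaged 58.5 CPM in WB1P and 66.2 CPM in WB1P-Myc CD26+ CAFs, with 206 CPM in WB1P-Myc mouse 23, against 13.0 CPM in CD26+ NFs, while the leukocyte gene Ptprc averaged 1.12 and 1.43 CPM in these CAFs. The list for mast cells, eosinophils and ILC2s, the cells known to answer to IL-33, summed to 0.62498 to 26.4 CPM per sum. Kit was its most abundant gene in 5 of the 6 groups and Gata3 in WB1P-Myc CD26− CAFs, and Epx had no counts in 4 groups. The highest sum was that of WB1P-Myc mouse 95, CD26− (26.4 CPM), the sum with the Il4 and Il13 counts.

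Among other marker lists, epithelial genes summed to 0.357 to 174 CPM per sum, endothelial genes to 10.5 to 90.0 CPM, leukocyte genes to 5.57 to 210 CPM and adipocyte genes to 0 to 11.8 CPM.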
